A study of Mus musculus with 24 samples.

Results

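The CHD family of chromatin remodelers was followed in the messenger RNA of 2 enriched male germ cell fractions and 3 genotypes of the mouse, with Chd5 as the gene of interest. The members were the rows of the count table whose Ensembl identifiers carry the symbols Chd1 to Chd9 in GENCODE M21, which gave 9 of the 55536 genes in the table. All 9 had enough counts to be tested in each fraction. The family was picked because Chd5 stood out in earlier work on these counts, where it was higher in heterozygous and null than in wild-type spermatocytes. All comparisons of Chd5 that use the spermatocyte libraries are therefore given as a description, without a test, and members called are counted among the other 8 wherever those libraries enter.

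CHD proteins carry a pair of chromodomains, which bind histone tails, next to a helicase-like motor that uses ATP to slide, evict or space nucleosomes. They fall into 3 branches. Chd1 and Chd2 bind DNA directly and work on transcribed genes, Chd3, Chd4 and Chd5 carry PHD fingers and can act as the motor of the nucleosome remodeling and deacetylase complex (NuRD), and Chd6 to Chd9 form the remaining branch, known from developmental gene control. CHD5 is known for its abundance in neurons and in the testis, where it is found in spermatid nuclei and is needed for histones to be replaced by transition proteins and protamines.

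The fractions were pachytene/diplotene spermatocytes (SP), which are in meiotic prophase, and round spermatids (RS), their haploid products. They came from Ago413+/+ (wild-type), Ago413+/- (heterozygous) and Ago413-/- (null) males aged 10 to 15 weeks on a C57BL/6J background. The Ago413 allele is a constitutive deletion on chromosome 4, present in somatic as well as germ cells, that takes out Ago1 completely and Ago3 and Ago4 in part. These genes encode Argonaute proteins that bind small RNAs. The allele was made in embryonic stem cells of another strain before the backcross. Testes of 2 to 5 mice were combined per preparation, and pooled fractions were over 70% pure by microscopy, so each library reads out several animals and a mixture of cells.

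Of the 24 libraries, 3 are called outliers in the labels (wild-type SP replicate 3, heterozygous SP replicate 4 and wild-type RS replicate 3) and were left out unless named. This left 4 wild-type, 3 heterozygous and 3 null SP libraries, and 3 wild-type, 4 heterozygous and 4 null RS libraries, with 12825105 to 29749058 counts each. Ago1 had 0 counts in all 7 null libraries and between 32 and 122 counts in each of the others. Summed spermatocyte markers lay between 1026 and 2006 CPM (counts scaled to a library of 1000000) in wild-type SP and between 783 and 1021 CPM in wild-type RS, while summed round spermatid markers lay between 1263 and 2121 CPM and between 2290 and 2791 CPM. Both fractions therefore held transcripts of both stages. Sertoli cell markers reached 444 CPM in a library, and summed Leydig, macrophage, myoid and endothelial, and erythrocyte markers stayed at or below 42.2 CPM. Hba-a2 was at 0 in 13 of 21 libraries, Hba-a1 in 10, Hbb-bs and C1qc in 5, C1qa and Lyz2 in 4, and Cd68 and Cdh5 in 1.

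Chd5 (ENSMUSG00000005045) lies on chromosome 4 from 152338651 to 152390194 on the plus strand of GRCm38. The bases before its start are shown because Chd5 was the member whose level differed most between groups, together with the stretch of the Chd4 window that held a like motif. The sequences are from the RefSeq promoter windows for GRCm38.p6, which run from 250 bases before to 50 bases after a start and were on hand for 5 of the 9 members. Capitals mark matches to the X-box (GTNNCC, any 3 bases, then GNAAC), read by RFX factors, and to the core TGACGT of the cyclic AMP response element, which CREM reads in spermatids. The motifs were searched on both strands and were picked after the Chd5 window had been read.
Chd5, 250 bases before the start, plus strand, chr4:152338401-152338650: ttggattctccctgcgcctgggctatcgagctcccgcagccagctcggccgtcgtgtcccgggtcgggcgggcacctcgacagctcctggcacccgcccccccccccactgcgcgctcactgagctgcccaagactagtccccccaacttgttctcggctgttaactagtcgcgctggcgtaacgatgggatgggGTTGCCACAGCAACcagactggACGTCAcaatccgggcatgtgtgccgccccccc
Chd4, plus strand letters of an X-box match read on the minus strand, with 8 bases on each side: ggtgggcgGTTGCCCAGGTGACgcgcgcgc

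The X-box match of Chd5 began 55 bases before the start, and the core match, read on the minus strand, began 33 bases before it. Of all 32851 windows, 2.17% held an X-box match, 7.51% the core TGACGT and 1.79% the full element TGACGTCA, which no member's window held. Chd4 held 2 X-box matches, the first of them 37 bases before the start in one of its 2 windows, and the windows of Chd6, Chd8 and Chd9 held none of these motifs. The Chd5 window was 70.7% G and C with 32 CpG, against medians of 52.7% and 7 over all windows. A match of letters says nothing about binding in these cells.

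Chd5 was lowest in wild-type spermatocytes and higher in every other group. The wild-type SP libraries held 227, 239, 219 and 259 CPM. The heterozygous SP libraries held 455, 465 and 489 CPM, and the null SP libraries held 402, 464 and 469 CPM. All 6 mutant SP libraries lay above all 4 wild-type SP libraries, and the heterozygous and null ranges overlapped. Wild-type RS held 624, 601 and 676 CPM, heterozygous RS held 775, 506, 691 and 924 CPM, and null RS held 583, 798, 786 and 749 CPM. Every RS library stood above every SP library, and the 3 RS genotypes overlapped. These are bulk measurements, in which fewer cells of a type and less RNA per cell cannot be told apart.

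**Figure D1:**
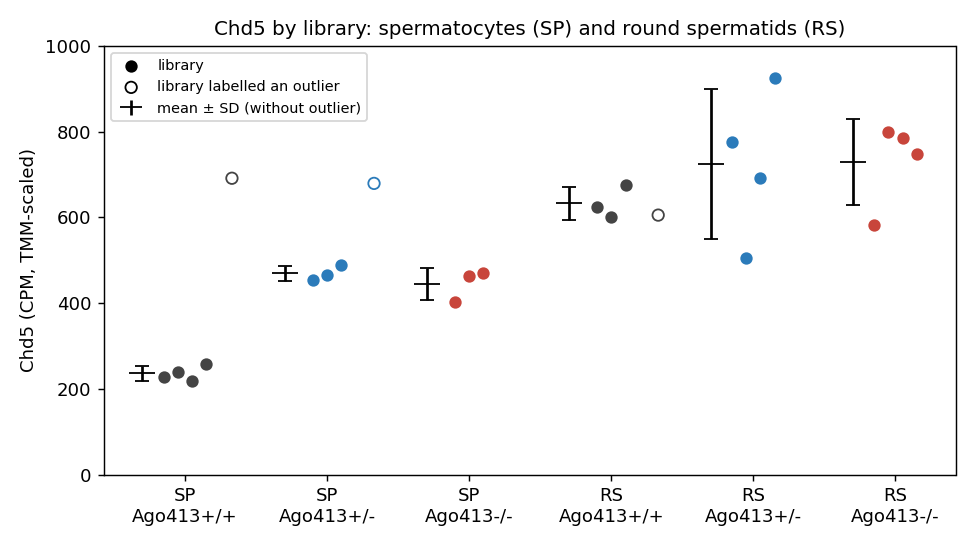
Chd5 level (vertical axis, CPM, TMM-scaled) for each library of spermatocytes (SP) and round spermatids (RS) of 3 genotypes, with mean and SD. The 4 wild-type SP libraries sit between 219 and 259, the other SP libraries between 402 and 489, and the RS libraries between 506 and 924, while the open circle of wild-type SP replicate 3, which the labels call an outlier, sits at 691.

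In null against wild-type SP the log2 fold change of Chd5 was 0.93 (SE 0.13), from 236 ± 17.2 CPM (SD, n = 4) to 445 ± 37.4 CPM (SD, n = 3). In heterozygous against wild-type SP it was 1.04 (SE 0.13), with 470 ± 17.8 CPM (SD, n = 3) in the heterozygote. With each library left out in turn the values stayed between 0.90 and 0.99 for the null and between 1.00 and 1.10 for the heterozygote. With the libraries labelled outliers added back they were 0.49 and 0.73, where wild-type SP replicate 3 held 691 CPM and heterozygous SP replicate 4 held 679 CPM. Of the other 8 members, edgeR's quasi-likelihood test called 0 in null SP, where 0.0411% of all tested genes were called, and 0 in heterozygous SP, where 0.0257% were. An unadjusted p under 0.05 was found for 1 and 2 of the 8, against 30.4% and 24.6% of all genes. DESeq2 called 0 of the 8 in null SP (15.2% of genes) and 1, Chd6, in heterozygous SP (6.16% of genes).

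Set against each other, heterozygous and null SP overlapped in Chd5, and the log2 fold change of null against heterozygous was -0.11 (SE 0.14), also without a test since both groups had a role in the choice. Of the other 8 members 0 were called between these groups by edgeR or DESeq2, and 0 had an unadjusted p under 0.05, against 3.74% of all genes. Among all genes edgeR called 0.00514% and DESeq2 0.0206%, and 8.62% did not overlap, which no member did.

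Markers of germ cell stage and of other cells were also compared between genotypes in spermatocytes. Summed over the whole list of 10 genes, round spermatid markers were 1263 to 2121 CPM in wild-type SP, 1857 to 3267 CPM in heterozygous SP and 2200 to 2519 CPM in null SP. The 11 spermatocyte markers summed to 1026 to 2006 CPM, 813 to 1104 CPM and 734 to 997 CPM in the same order. The 9 spermatogonia markers summed to 923 to 1043 CPM, 845 to 867 CPM and 801 to 995 CPM, sums carried by Dmrtb1 with a median of 772 CPM. Their mean log2 CPM, which weights the genes equally, ran the other way, with 2.45 to 2.83, 3.17 to 3.45 and 2.73 to 3.38. Of these 9 edgeR called 1 higher in heterozygous SP (0.0257% of all genes called) and 0 in null SP (0.0411%), and DESeq2 called 4 higher (6.16%) and 2 higher (15.2%). Elongating spermatid markers overlapped between the 3 genotypes, with 4795 to 10644, 8722 to 11302 and 5586 to 15931 CPM. All 10 round spermatid markers had log2 fold changes above 0 in heterozygous and in null SP, with medians of 0.74 and 0.61. DESeq2 called 4 and 2 of them higher, and edgeR 0, where DESeq2 called 6.16% and 15.2% of all genes. Of the 11 spermatocyte markers 10 and 9 were below 0, with medians of -0.82 and -0.68. DESeq2 called 4 and 5 of these lower, and edgeR 0. No gene of the germ cell stage lists was at 0 in any library. Summed macrophage markers were 3.15 to 4.89 CPM, up to 8.32 CPM and 4.48 to 11.4 CPM, and Leydig markers 3.25 to 10.1, 6.03 to 22.8 and 4.57 to 6.94 CPM. DESeq2 called 2 of 4 tested macrophage markers higher in null SP and 2 of 5 Leydig markers higher in heterozygous SP, and edgeR 0. All 8 Sertoli markers had values below 0 in null SP, with a median of -0.77, and 0 were called. The part of these cells in the Chd5 values was not tested.

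**Figure D2:**
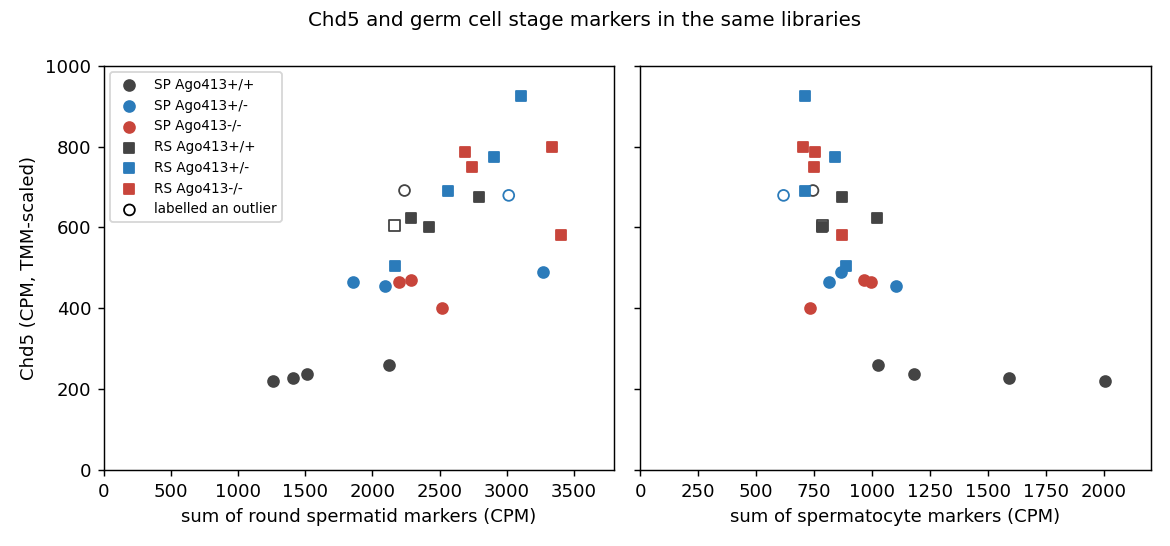
Chd5 (vertical axis, CPM) against the sum of 10 round spermatid markers (left, CPM) and of 11 spermatocyte markers (right, CPM) in the same libraries, circles for SP, squares for RS, open symbols for libraries labelled outliers. The 4 used wild-type SP libraries hold 219 to 259 CPM of Chd5, 1263 to 2121 CPM of round spermatid markers and 1026 to 2006 CPM of spermatocyte markers. Of these, replicate 5 has the most Chd5, the most round spermatid markers and the fewest spermatocyte markers. In null SP, replicate 1 has the most round spermatid markers, 2519 CPM, and the least Chd5, 402 CPM. The part of stage composition in Chd5 was not tested.

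In round spermatids Chd5 did not differ between genotypes beyond the spread. The mean was 633 ± 38.3 CPM (SD, n = 3) in wild-type, 724 ± 175 CPM (SD, n = 4) in heterozygous and 729 ± 99.8 CPM (SD, n = 4) in null RS. Null against wild-type gave a log2 fold change of 0.18 (SE 0.17 with adjusted p = 0.592 in edgeR) and heterozygous against wild-type 0.20 (SE 0.17 with adjusted p = 0.741 in edgeR). Null against heterozygous gave -0.02 (SE 0.16 with adjusted p = 0.984 in edgeR). The null effect in RS minus that in SP was -0.71 (SE 0.22) for Chd5, a value that contains the contrast the gene was chosen on and is given without a test. No gene of the 20404 tested was called for that difference by edgeR or DESeq2, while 1215 had an unadjusted p under 0.05.

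Chd5 was higher in RS than in SP in all 3 genotypes. The log2 fold change was 1.42 (SE 0.15) in the wild type, 0.62 (SE 0.16) in the heterozygote and 0.71 (SE 0.16) in the null, with no overlap between fractions in any of them. No test is given, because the SP libraries of each genotype had a role in the choice of the gene. With the libraries labelled outliers added back the wild-type value was 0.94, where wild-type SP replicate 3, at 691 CPM, held more Chd5 than any used wild-type RS library. With each library left out in turn the wild-type value ran from 1.38 to 1.47, the heterozygous value from 0.49, without heterozygous RS replicate 4, the library with the most Chd5, to 0.76, and the null value from 0.64 to 0.81. Summed elongating spermatid markers were higher in every RS than in every SP library, with 21710 to 56434 CPM against 4795 to 15931 CPM. Summed macrophage markers were 11.4 to 42.2 CPM in RS and 3.15 to 11.4 CPM in SP, with 6 of 8 called higher in RS by edgeR in each genotype, where 24.2%, 8.89% and 17.1% of all genes were called in the wild type, heterozygote and null. Sertoli cell markers overlapped between fractions of the wild type and of the heterozygote, and in the null they were 241 to 438 CPM in RS against 90.5 to 165 CPM in SP, with 4 of 8 called higher (17.1% of all genes called). The part of these cells in the Chd5 values was not tested.

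The order of the members was compared on CPM divided by kilobases of merged exons (RPKM). In wild-type SP, Chd4 led with 40.3 ± 9.39 RPKM (SD, n = 4), ahead of Chd5 with 24.6 ± 1.80 RPKM, and their ranges overlapped. In each of the other 5 groups Chd5 came first and Chd4 second, with no overlap between them. Chd3 followed Chd4 and Chd5 in all 6 groups, between 5.62 and 8.16 RPKM on average. Chd1 and Chd8 followed and overlapped in every group, at 1.70 to 3.52 and 1.66 to 2.54 RPKM. Chd2, Chd6 and Chd7 had means between 0.260 and 0.988 RPKM, and Chd9 was last in every group with 0.111 to 0.221 RPKM. The range of Chd9 overlapped that of Chd6 in wild-type SP, Chd2 overlapped Chd7 in all RS groups, and Chd6 overlapped its neighbours Chd2 and Chd7 in heterozygous SP and Chd2 in null RS. Taking the length of the longest transcript in place of merged exons swapped Chd1 and Chd8 in 5 groups and moved no other rank.

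**Figure D3:**
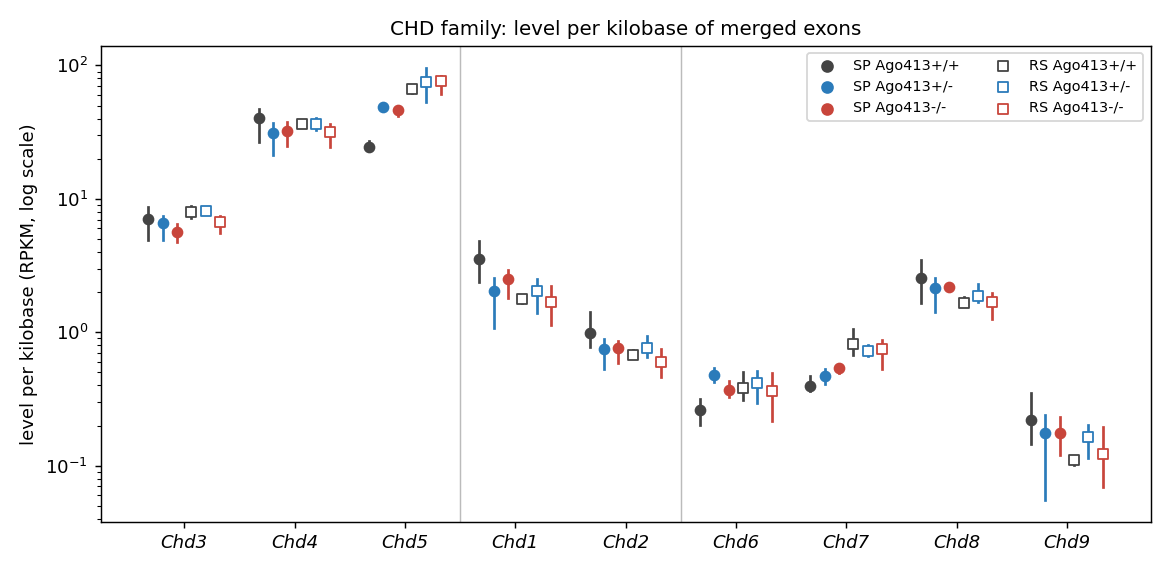
Level of each CHD member per kilobase of merged exons (vertical log axis, RPKM) in 6 groups, with symbols for group means and lines for the range over libraries, and vertical rules between the 3 branches of the family. The mean of Chd5 is below that of Chd4 in wild-type SP (24.6 against 40.3 RPKM) and above it in the other groups. Group means of Chd4 lie between 31.3 and 40.3 RPKM, and its libraries between 21.3 and 47.4 RPKM.

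Within a library, Chd5 and Chd4 can be set against each other without a scaling factor. The ratio of Chd5 to Chd4 per kilobase was 0.577, 0.541, 0.483 and 1.01 in wild-type SP. It was 1.33, 1.32 and 2.39 in heterozygous SP and 1.69, 1.28 and 1.45 in null SP. In RS it was 1.75, 1.76 and 1.93 in the wild type, 2.47, 1.42, 1.79 and 2.75 in the heterozygote and 2.47, 2.68, 2.24 and 2.21 in the null. Only wild-type SP had libraries below 1. All null RS libraries lay above all wild-type RS libraries, a difference of 0.40 in the mean log2 ratio (two-sided exact permutation test, p = 0.0571, the smallest that 4 against 3 libraries allow). Heterozygous RS overlapped with wild-type RS (exact permutation p = 0.457) and with null RS (exact permutation p = 0.4). Summed macrophage markers also separated null from wild-type RS, with 28.5 to 34.8 CPM against 11.4 to 18.5 CPM, and lay between 17.3 and 42.2 CPM in heterozygous RS. Of the 8 macrophage markers 6 were higher in null than in wild-type RS without overlap (19.4% of all genes did not overlap), DESeq2 called 3 (3.62%) and edgeR 0 (0.0518%), and their part in the ratio was not tested. Chd5 made up 31.6% ± 7.21 (SD, n = 4) of the family's summed RPKM in wild-type SP and 63.5% ± 2.18 (SD, n = 4) in null RS, with the other groups between 51.4% and 59.3%.

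Chd3 and Chd4, the relatives of Chd5 that serve as motors of NuRD in most cell types, were not called in any comparison. Chd4 held 329, 369, 380 and 215 CPM in wild-type SP, 199, 303 and 270 CPM in null SP and 286, 296 and 171 CPM in heterozygous SP. The ranges overlapped, with wild-type replicate 5 and heterozygous replicate 3 low. The log2 fold change of Chd4 was -0.31 (SE 0.23 with adjusted p = 0.372 in edgeR) for null and -0.32 (SE 0.23 with adjusted p = 0.41 in edgeR) for heterozygous SP. In RS, Chd4 kept between 198 and 324 CPM, and its difference between fractions in the wild type was -0.15 (SE 0.20 with adjusted p = 0.633 in edgeR). Chd3 held between 40.2 and 73.6 CPM in SP and between 46.8 and 74.3 CPM in RS. Its null RS libraries, at 46.8 to 63.3 CPM, all lay below the heterozygous RS libraries, at 64.6 to 73.2 CPM (log2 fold change -0.31, SE 0.12 with adjusted p = 0.631 in edgeR), as 1 of 9 members against 3.93% of all genes, and 0.00518% of genes were called there by edgeR and 0.104% by DESeq2.

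Chd1, which follows elongating RNA polymerase and keeps chromatin open in stem cells, was lower in wild-type RS than in wild-type SP. It held 31.2, 28.6, 41.9 and 20.9 CPM in wild-type SP and 14.5, 16.0 and 16.0 CPM in wild-type RS, without overlap. Its log2 fold change was -0.98 (SE 0.30 with adjusted p = 0.0182 in edgeR). The call was lost without wild-type SP replicate 4, the library with the most Chd1, or without any one of the 3 wild-type RS libraries. Over all 7 fits that left out a library the value ran from -0.79 to -1.13, and 3 of them kept the call. The difference between fractions was -0.01 (SE 0.29 with adjusted p = 0.994 in edgeR) in the heterozygote and -0.57 (SE 0.29 with adjusted p = 0.178 in edgeR) in the null. In heterozygous against wild-type SP the value was -0.72 (SE 0.31 with adjusted p = 0.177 in edgeR), with 22.0, 22.2 and 9.44 CPM in the heterozygote. Chd2, the closest relative of Chd1, held 11.1 to 20.2 CPM in wild-type SP and 9.27 to 10.5 CPM in wild-type RS, also without overlap, with a log2 fold change of -0.55 (SE 0.24 with adjusted p = 0.0941 in edgeR). It was -0.32 without wild-type SP replicate 4, and was called without wild-type SP replicate 5, at -0.65 (adjusted p = 0.0453 in edgeR).

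Chd7, the gene mutated in CHARGE syndrome, was called higher in wild-type RS than in wild-type SP. In wild-type SP it held 5.01, 6.47, 5.43 and 4.99 CPM, against 14.6, 9.35 and 10.1 CPM in wild-type RS. These ranges did not overlap, and the log2 fold change was 1.06 (SE 0.20 with adjusted p = 0.000802 in edgeR), called without any one library at 0.83 to 1.18. It was 0.61 (SE 0.20 with adjusted p = 0.0579 in edgeR) in the heterozygote, where DESeq2 called it (adjusted p = 0.0307), and 0.47 (SE 0.20 with adjusted p = 0.0999 in edgeR) in the null. Null SP held 7.54, 7.83 and 6.83 CPM, all above wild-type SP, with a log2 fold change of 0.46 (SE 0.22 with adjusted p = 0.175 in edgeR). The libraries held only 87 to 333 counts of Chd7, so counting error adds to the spread between pools.

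Chd6 was low throughout and highest in heterozygous SP. It held 3.86, 4.99, 6.06 and 4.92 CPM in wild-type SP, 9.07, 10.2 and 8.16 CPM in heterozygous SP and 8.24, 6.22 and 6.62 CPM in null SP. Both mutant groups lay above the wild type, which reached no higher than 6.06 CPM. The log2 fold change was 0.93 (SE 0.23 with adjusted p = 0.124 in edgeR) for heterozygous SP, which DESeq2 called (adjusted p = 0.0123) and edgeR called only without wild-type SP replicate 5, at 0.94 (adjusted p = 0.0298). For null SP it was 0.53 (SE 0.23 with adjusted p = 0.146 in edgeR). Apart from Chd5, no overlap with wild-type SP was seen for 2 of 8 members in null SP (Chd6 and Chd7, with 28.0% of all genes) and for 1 of 8 in heterozygous SP (Chd6, with 17.6%). In RS the Chd6 genotypes overlapped, between 4.11 and 9.70 CPM.

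Chd8, a regulator of Wnt target genes and of brain development, and Chd9 were lower on average in wild-type RS. Chd8 held 41.5, 40.8, 58.0 and 27.5 CPM in wild-type SP and 25.9, 25.9 and 30.4 CPM in wild-type RS. The ranges overlapped through wild-type SP replicate 5, and the log2 fold change of -0.62 (SE 0.23 with adjusted p = 0.0491 in edgeR) passed the threshold in the fit of all libraries. Of the 7 fits that left out a library only that without wild-type SP replicate 5 kept the call, at -0.77, and the others ran from -0.42 to -0.69 with edgeR adjusted p up to 0.204. Of all 15 alternatives 4 kept the call. Beside left-out libraries, it was lost with no filter beyond 1 count, with only the compared groups, with the outlier libraries added back, with a library number term and with consecutive library numbers as pairs, at -0.37 to -0.62. Chd9 held 3.39 to 8.05 CPM in wild-type SP and 2.35 to 2.73 CPM in wild-type RS, a fold of 0.501 (log2 SE 0.42 with adjusted p = 0.082 in edgeR) that DESeq2 called (adjusted p = 0.0454). EdgeR called it with only the compared groups fitted. It also called it without wild-type SP replicate 5, at -1.16 (adjusted p = 0.043 in edgeR), and the log2 value of Chd9 was -0.69 without replicate 4. Its libraries held 24 to 166 counts.

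Counted over the 8 members other than Chd5, edgeR called 3 between fractions of the wild type, Chd7 higher (12.7% of all tested genes) and Chd1 and Chd8 lower (11.4% of genes) in RS, where 24.2% were called in either direction. In the heterozygote it called 0 of 8 (8.89% of genes) and in the null 0 of 8 (17.1% of genes), and an unadjusted p under 0.05 was found for 6 of 8 in the wild type (37.9% of genes) and for 1 of 8 in the heterozygote and in the null (23.6% and 32.4%). Wild-type fractions did not overlap for 4 of the 8 (33.7% of genes), null fractions for 1 (29.7%), and heterozygous fractions for 2, Chd3 and Chd7, both higher in RS (10.9% of genes higher and 7.07% lower, or 3673 of 20404 in either direction). DESeq2 called 4, 1 and 0 of 8 in the wild type, heterozygote and null, where it called 26.7%, 11.2% and 19.9% of genes. In RS, 0 of 9 members were called between null and wild-type (0.0518% of genes) or between heterozygous and wild-type (0.0207%) by edgeR, nor by DESeq2 (3.62% and 0.0414% of genes), none had an unadjusted p under 0.05 (19.3% and 8.88% of genes), and every member overlapped between these groups (19.4% and 9.81% of genes). The median log2 fold change of the 8 members other than Chd5 was -0.31 in null SP, against -0.03 over all tested genes, and -0.35 between wild-type fractions, against 0.02.

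**Figure D4:**
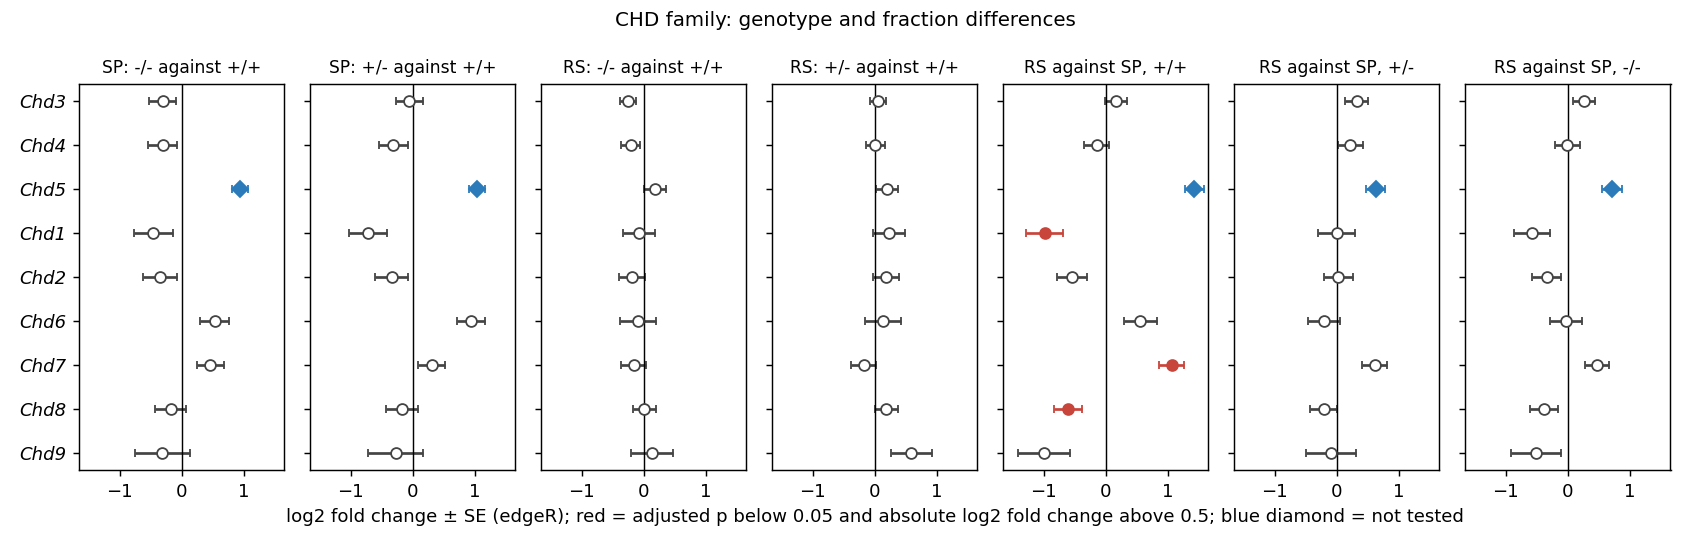
Log2 fold change (horizontal axis, with SE) of the 9 members, grouped by branch, in 4 genotype comparisons and 3 fraction comparisons. Chd5 stands at 0.93 and 1.04 in the mutant SP panels, at 0.18 and 0.20 in the RS panels and at 0.62 to 1.42 in the fraction panels, with diamonds where no test is given, while Chd7 at 1.06 and Chd1 and Chd8 at -0.98 and -0.62 between wild-type fractions are the called values.

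In several groups most members were lowest in the same library. The share of all genes lowest in those libraries was not counted, so these counts describe the members alone. In wild-type SP, replicate 5 was the lowest of 4 libraries for 7 of 9 members and the highest for Chd5. It also had the lowest spermatocyte marker sum, 1026 CPM, and the highest round spermatid sum, 2121 CPM. Its elongating spermatid sum, 10368 CPM, lay between those of replicates 4 and 1. In heterozygous SP, replicate 3 was the lowest of 3 libraries for 8 of 9 members and again the highest for Chd5, with the highest round spermatid sum of any SP library, 3267 CPM. Its elongating spermatid sum, 8722 CPM, was the lowest of its group. Its spermatocyte sum, 866 CPM, lay between those of replicates 1 and 2. In null SP, replicate 1 was the lowest of 3 libraries for 7 of 9 members, here with Chd5 among them, and had the highest round spermatid sum of null SP, 2519 CPM. It also had the highest elongating spermatid sum, 15931 CPM, and the lowest spermatocyte sum, 734 CPM, of null SP. In null RS, replicate 1 was the lowest of 4 libraries for all 9 members, with the highest elongating spermatid sum, 56434 CPM. Its round spermatid and spermatocyte sums, 3402 and 869 CPM, were also the highest of null RS. The part of stage composition in these patterns was not tested.

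Of the 12 NuRD subunits other than CHD proteins, which supply deacetylase, histone-binding and methyl-DNA-binding functions, edgeR called 0 in null SP (0.0411% of all genes), 1 lower in null RS (0.0518%) and 3 between wild-type fractions (24.2%, about the share of the subunits). In null SP 6 of the 12 had an unadjusted p under 0.05 (30.4% of genes) and DESeq2 called 4 (15.2% of genes), and in null RS the same counts were 6 (19.3% of genes) and 2 (3.62% of genes). Hdac1, a deacetylase of NuRD, was lower in null RS, with a log2 fold change of -0.80 (SE 0.11 with adjusted p = 0.00644 in edgeR) and had a value of -0.68 (SE 0.13 with adjusted p = 0.0599 in edgeR) in null SP. Near-identical pseudogene copies of Hdac1 make its count uncertain. Rbbp4, a histone chaperone subunit, had -0.93 (SE 0.19 with adjusted p = 0.0599 in edgeR) in null SP and -0.34 (SE 0.14 with adjusted p = 0.205 in edgeR) in null RS. Rbbp4 and Hdac1 start at 129307100 and 129516104 on chromosome 4, within the 5 Mb next to Ago1 and so near the deletion. Hdac1 was 1 of the 4 genes that edgeR called there in null RS. The part of the flanking region in these values was not tested. Mta2, a scaffold subunit, had -0.63 in null SP (edgeR adjusted p = 0.0736) and -0.63 in null RS (edgeR adjusted p = 0.0781), without overlap with the wild type in either. Gatad2b, a zinc finger subunit, had 0.69 (SE 0.18 with adjusted p = 0.0599 in edgeR) in null SP.

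Between wild-type fractions Mbd2, which binds methylated DNA, was higher in RS, at a log2 fold change of 1.09 (SE 0.22 with adjusted p = 0.00128 in edgeR), and it was also called in the heterozygote at 1.21 and in the null at 1.41. Gatad2a was higher by 0.54 (SE 0.13 with adjusted p = 0.00394 in edgeR), and Rbbp4 was lower, at -0.67 (SE 0.17 with adjusted p = 0.00562 in edgeR). Rbbp7, the relative of Rbbp4, was called in the null alone, at 0.90 (SE 0.28 with adjusted p = 0.0302 in edgeR). The median of the 12 subunits was -0.12 between wild-type fractions and -0.15 in null SP.

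**Figure D5:**
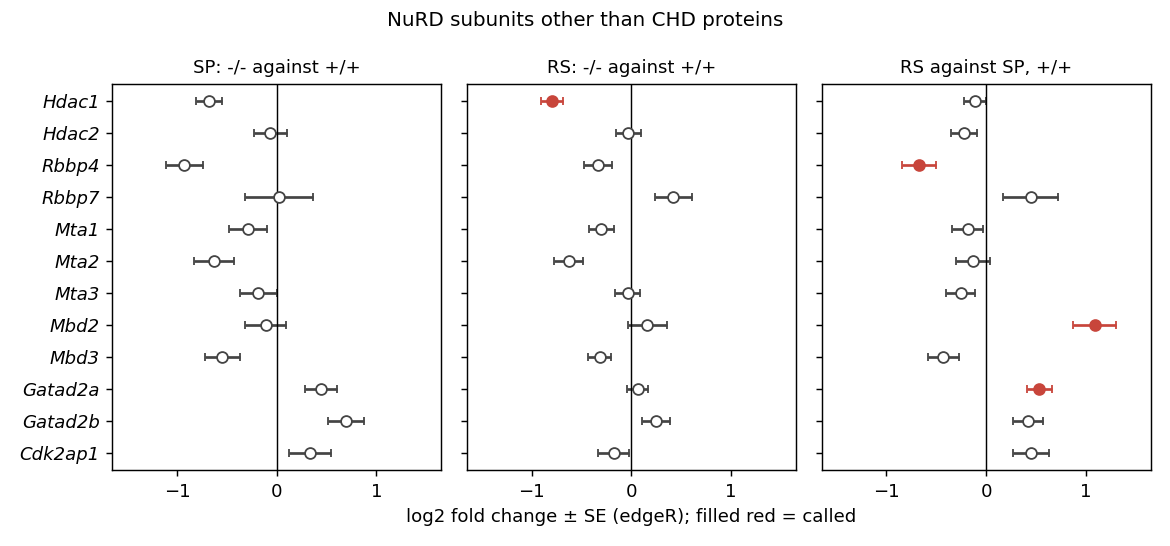
Log2 fold change (horizontal axis, with SE) of 12 NuRD subunits other than CHD proteins in null SP, null RS and between wild-type fractions. Hdac1 at -0.80 is the filled point in null RS, and Mbd2 at 1.09, Gatad2a at 0.54 and Rbbp4 at -0.67 are those between fractions.

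Of 18 ATPases of other SNF2-type remodelers, 5 were called lower and 0 higher in wild-type RS, where 11.4% of all genes were called lower and 12.7% higher, among them Smarca5, the motor of ISWI complexes, at -0.97 (SE 0.19 with adjusted p = 0.00109 in edgeR). Their median was -0.53, and 17 of 18 values were below 0. In null SP and null RS 0 of 18 were called by edgeR or DESeq2, and 2 had an unadjusted p under 0.05 in each, against 30.4% and 19.3% of all genes. Of 10 genes of histone replacement, the process in which CHD5 is known to act, 6 were called higher in wild-type RS (12.7% of all genes), including Tnp1 (1.95, SE 0.36) and Prm1 (2.04, SE 0.38), the main nuclear proteins of condensing spermatids, with edgeR adjusted p of 0.000744 and 0.000817. In null SP and null RS 0 of these 10 genes were called by edgeR (0.0411% and 0.0518% of all genes) or DESeq2 (15.2% and 3.62%), and 0 had an unadjusted p under 0.05 (30.4% and 19.3%).

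The genes most like Chd5 were sought over 21 libraries after the mean of each fraction had been subtracted, among 16061 expressed genes. Among the leading 5 were Slc22a22, an organic anion transporter (Pearson's r = 0.90, Spearman's rho = 0.88), Tnrc6b, a GW182 protein that partners Argonaute (r = 0.88, rho = 0.84), Mycbpap (r = 0.88, rho = 0.89) and Sept4, a septin of the sperm annulus (r = 0.88, rho = 0.90). Without wild-type SP replicates 1 and 4, the libraries farthest from the median of Chd5, r was 0.82 to 0.87 for these 4. Tnrc6b held 16.5 ± 0.564 CPM (SD, n = 4) in wild-type SP, 24.7 ± 3.18 CPM (SD, n = 3) in heterozygous SP, 25.6 ± 1.25 CPM (SD, n = 3) in null SP and 42.4 ± 3.27 CPM (SD, n = 3) in wild-type RS. Of the family, Chd7 (r = 0.53) and Chd6 (r = 0.47) had the highest r, and Chd1 (r = -0.47) and Chd2 (r = -0.43) the lowest. Without the same pair of libraries these were 0.42, 0.37, -0.27 and -0.19 in that order. All points share library and depth, and Chd5 was chosen for its genotype pattern, so these are descriptions.

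Chd5 lies 25870 kb from Ago1 on the same chromosome, and Chd7 lies 117567 kb from it. Of the genes within 1 Mb of the Chd5 start, 21 were tested, and 0 were called by edgeR in null SP, heterozygous SP or null RS. An unadjusted p under 0.05 was found for 7, 7 and 5 of them in that order, where 30.4%, 24.6% and 19.3% of all genes had one, and DESeq2 called 4, 1 and 2, where it called 15.2%, 6.16% and 3.62% of all genes. Their median log2 fold change was 0.00 in null SP and 0.14 in heterozygous SP, against -0.03 and 0.07 over all genes. Between Ago1 and Chd5, edgeR calls in null SP and null RS were limited to the 5 Mb next to Ago1. In that stretch 2 of 70 and 4 of 72 tested genes were called (0.0411% and 0.0518% of all genes), Hdac1 among the 4. DESeq2 called 12 of 70 and 14 of 72 there, and between 3 and 19 and between 1 and 5 genes in each of the 5 bins from there to Chd5. Chd5 shares 101 exon bases with Gm13645 on the other strand, of 9583 in all. Chd8 shares 953 with the antisense Gm26590, and Chd2 shares 2628 with 1810026B05Rik on its own strand, so counts of these members are the less certain.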

How the data were processed

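Poly(A) RNA of each fraction was sequenced from strand-marked libraries. Per the study's methods and the labels, reads were trimmed with Trim Galore, reads under 50 nt were removed, and STAR counted reads per gene (build mm10). Versions, the strand column and the annotation release are not given in the sources used here. The authors deposited raw counts per gene, without normalization. All 55536 identifiers matched GENCODE M21 (GRCm38), which gave symbols, coordinates and lengths.

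Groups followed the labels, and 21 of 24 libraries were used. Labels call libraries separate samples, each a pool of mice, so p-values within a fraction measure the spread between pools. Fractions were compared without pairing, and an SP and an RS library may share a pool, which the sample titles do not state. Genes with 10 or more counts in 3 or more libraries of a fit were tested in R 4.3.3 with edgeR 4.0.16 (TMM scaling, quasi-likelihood F test). Each fraction was fitted with its 3 genotypes, and fractions were compared in a joint fit of 6 groups. A gene was called when its absolute log2 fold change exceeded 0.5 and its adjusted p (Benjamini-Hochberg, all tested genes) was below 0.05. SE is the absolute log2 fold change over the square root of F. DESeq2 1.42.0, other scaling, other filters and left-out libraries were alternatives. CPM are TMM-scaled over the 21 libraries, log2 CPM used a prior count of 2, and means carry the SD. Scripts were tested on simulated data.

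No 2 libraries of a group were repeat deposits (chi-square per gene of at least 9.75 over 37 pairs). Replicate numbers did not pair the samples, since deviations of same-numbered libraries correlated above 0.1 in 7 of 17 pairs of genotypes and 4 of 9 pairs of fractions. Libraries of consecutive numbers in the 2 fractions did so in 8 of 9 pairs, not in all, and this pairing was an alternative.

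The members and gene lists were chosen with earlier results of these data known. Called members were planned to be counted over all 9. The count over the 8 other than Chd5, used where SP libraries enter, was chosen after seeing the data, and the closing section gives both. Named were all 9 members, called NuRD subunits and those with the largest changes, the 5 genes most like Chd5 (1 of them is not reported here), and examples from the other lists.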

Additional observations from a re-analysis of the deposited data

Results flagged for a closer look

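Among 27 groups of 4 libraries (each member in wild-type SP, heterozygous RS and null RS), 1 held a library far from the others, which is about what chance gives at 1 in 20 groups. It was Chd8 in heterozygous RS, where replicate 2 held 37.9 CPM and the other libraries 28 to 28.8 CPM.

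The libraries that the labels call outliers entered no comparison, and some of their levels lay above all used wild-type libraries of their fraction. Wild-type SP replicate 3 held 691 CPM of Chd5 (219 to 259 in the used libraries), 10.1 CPM of Chd6 (3.86 to 6.06) and 9.36 CPM of Chd7 (4.99 to 6.47). Heterozygous SP replicate 4 held 679 CPM of Chd5, 6.61 CPM of Chd6 and 9.54 CPM of Chd7. Both had more elongating spermatid markers, 18934 and 18066 CPM, than any used SP library, and fewer spermatocyte markers, 745 and 619 CPM, than any used library of their group. Wild-type SP replicate 3 also held 40.8 CPM of macrophage markers, against 3.15 to 4.89 CPM in the used wild-type SP libraries. The part of those cells in the levels was not tested.

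Wild-type RS replicate 3 held 27.7 CPM of Chd1 (14.5 to 16 in the used libraries), 12.3 CPM of Chd2 (9.27 to 10.5), 351 CPM of Chd4 (285 to 299), 13.1 CPM of Chd6 (5.93 to 9.57), 43.8 CPM of Chd8 (25.9 to 30.4) and 6.65 CPM of Chd9 (2.35 to 2.73). Its elongating spermatid markers, 7527 CPM, were below those of every used RS library.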

How the results depend on the processing

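Of the 8 members other than Chd5, a count chosen after seeing the data, 0 were called in null SP under every alternative run. In heterozygous SP DESeq2 called 1, Chd6, and leaving out a library gave 0 to 1, the 1 being Chd6 without wild-type SP replicate 5. Between wild-type fractions the 3 members became 0 with the libraries labelled outliers added back, a fit in which 0 genes of the table were called, and 1 to 5 with a library left out. Chd7 alone was called there without wild-type SP replicate 4 or any one wild-type RS library, and Chd2 and Chd9 joined without wild-type SP replicate 5. Fitting only the compared groups lost Chd8 and added Chd9. DESeq2 called 1, Chd7, between heterozygous fractions, and leaving out a library gave 0 to 1 between null fractions, Chd7 without null RS replicate 1. The comparisons within RS gave 0 of 9 throughout. The causes were not tested.

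The planned count over all 9 members adds Chd5, whose calls on SP libraries follow from its choice, so nothing is read from them. It was 1 in null SP, 1 in heterozygous SP, 4 between wild-type, 1 between heterozygous and 1 between null fractions. With the outlier libraries added back it was 0 in these 5, where 6, 3, 0, 0 and 2275 genes of the table were called. DESeq2 gave 2 in heterozygous SP and 2 between heterozygous fractions, fitting only the compared groups gave 0 in both, and a term for library number gave 0 in null SP. With a library left out it was 0 to 1, 0 to 2, 2 to 6, 0 to 1 and 1 to 2 in the order above.

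Replicate numbers did not pair the samples. With the replicate number as a block the count over 9 was 0 in heterozygous SP, and the other counts stayed within 1.5 times. Pairing by consecutive library numbers gave 0 of 9 between heterozygous fractions.

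Of 1359 member values under alternatives, 109 had the other sign, 0 of them called, with at most 0.35 on the log2 scale. Calls over all genes ranged from 4 to 4526 in null SP and from 0 to 6398 between wild-type fractions. Counts of 24 to 333 per library limit the precision for Chd6, Chd7 and Chd9.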
